A study of Homo sapiens with 6 samples.

Results

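The genes described here encode subunits of respiratory complexes II, III, IV and V. They are 44 genes of the 20289 in the table: 4 of complex II, 10 of complex III, 13 of complex IV and 17 of complex V. The nuclear genome encodes 38 of them and the mitochondrial genome 6. They were taken from a list of gene symbols, which was chosen with earlier results of these data known. All 44 were detected and tested. RNA sequencing had been done on RKO, an established line of human colorectal cancer cells, in which TRMT6 was knocked down with a short hairpin RNA (shTRMT6, n = 3 libraries), and on the same line with a control hairpin (shControl, n = 3). TRMT6 binds tRNA and works with the methyltransferase TRMT61A to methylate adenosine at a fixed site of many tRNAs. The labels name neither the hairpin sequence, nor whether each group was 1 clone, nor the days since the hairpin was introduced. Whether replicates came from separate cultures is also not stated, so the p-values rest on the spread of these libraries alone, and that spread may be technical.

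The respiratory chain passes electrons from nutrients to oxygen in the inner mitochondrial membrane. Complex II takes them from succinate, complex III passes them from ubiquinol to cytochrome c, and complex IV passes them on to oxygen. Complexes III and IV pump protons, and complex V, the ATP synthase, lets the protons flow back through a turning ring and makes ATP. Complex II is made wholly of nuclear gene products, while the other complexes mix nuclear and mitochondrial ones, so their assembly joins proteins made by cytosolic and by mitochondrial ribosomes.

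Levels are given as FPKM, the fragments of a gene scaled to its length and to the library's mapped fragments, as the authors deposited them. Differences are means of log2(FPKM + 1) in shTRMT6 minus those in shControl, tested with limma over the 10592 genes whose mean reached 1 FPKM, and a gene is called at a Benjamini-Hochberg adjusted p under 0.05. TRMT6 itself read 1.58, 1.73 and 1.09 FPKM in shTRMT6 and 14.4, 18.0 and 16.9 FPKM in shControl. It was 11.2-fold lower in the knockdown (log2 difference -2.82, SE 0.13, adjusted p = 4.33e-08), and an exact two-sided permutation test gave p = 0.1, the smallest that 3 libraries against 3 allow. Estimated depth was 18.5 to 20.1 M fragments (M for mega) in shTRMT6 and 21.3 to 28.2 M in shControl. Pairs of libraries from 1 group correlated at 0.9893 to 0.9947 in log2 values, and pairs from different groups at 0.963 to 0.9818. The libraries differed in base composition. Deviations from the 6-library mean, on the log2 scale per 10 points of transcript GC content, were 0.229, -0.00472 and 0.0352 in shControl. In shTRMT6 they were -0.0725, -0.161 and -0.0265, each below every shControl value. Replicate 1 of shControl stood furthest apart. The GC trend thus cannot be told apart from the knockdown, and the GC correction can remove or add differences between the groups. Of 10 epithelial markers, EPCAM, KRT8, KRT18 and CDX2 were detected, whereas CDH1, KRT19, KRT20, CDX1 and VIL1 were listed at 0 in all 6 libraries. The summed level of the 10 markers was 201 to 214 FPKM in shTRMT6 and 124 to 156 FPKM in shControl. Most of it was KRT18, which averaged 186 FPKM in shTRMT6 and 118 FPKM in shControl. Of the 4 tested markers 2 were called higher, KRT18 (log2 difference 0.66, SE 0.10, adjusted p = 0.00053) and EPCAM (0.50, SE 0.16, adjusted p = 0.0282). KRT8 (0.07, adjusted p = 0.687) and CDX2 (-0.05, adjusted p = 0.811) were not called. The EPCAM call was lost without shTRMT6 replicate 2 (adjusted p = 0.114), shTRMT6 replicate 3 (0.0691) or shControl replicate 1 (0.086). The 6 fibroblast markers summed to 0.03 to 0.11 FPKM in shTRMT6 and 0.1 to 1.38 FPKM in shControl. The 5 leukocyte markers summed to 739 to 997 FPKM in shTRMT6 and 677 to 811 FPKM in shControl, nearly all of it CD68, a lysosomal protein, with the defining marker PTPRC at 0 or 0.02 FPKM. The part of these shifts in the results below was not tested.

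Most subunit mRNAs differed little between the groups, and the pair that fell had the largest differences of the 44. Of the 44 genes, 9 were higher in shTRMT6, 2 were lower and 33 were not called, so 25.0% were called, against 35.4% of all genes tested. Over all genes 19.3% were called higher and 16.1% lower. The 9 that rose were UQCRB and UQCRFS1 of complex III, COX5B of complex IV and ATP5F1B, ATP5F1C, ATP5PB, ATP5PD, ATP5PF and ATP5PO of complex V. The 2 that fell were UQCRC2 of complex III and ATP5MC1 of complex V. Without shTRMT6 replicate 1, shTRMT6 replicate 2 or shControl replicate 3 the number of higher members was 3, 4 or 5, and in each case 2 were lower. In the same fits the share of all genes called higher fell too, to 12.3%, 12.2% or 15.3%. In RNA from whole cultures, less RNA per cell and fewer cells with that RNA cannot be told apart. The median log2 difference of the 44 was 0.11, beside 0.02 over all genes. The groups did not overlap for 22 of the 44 genes, 50%, against 48.3% of all genes tested.

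**Figure D1:**
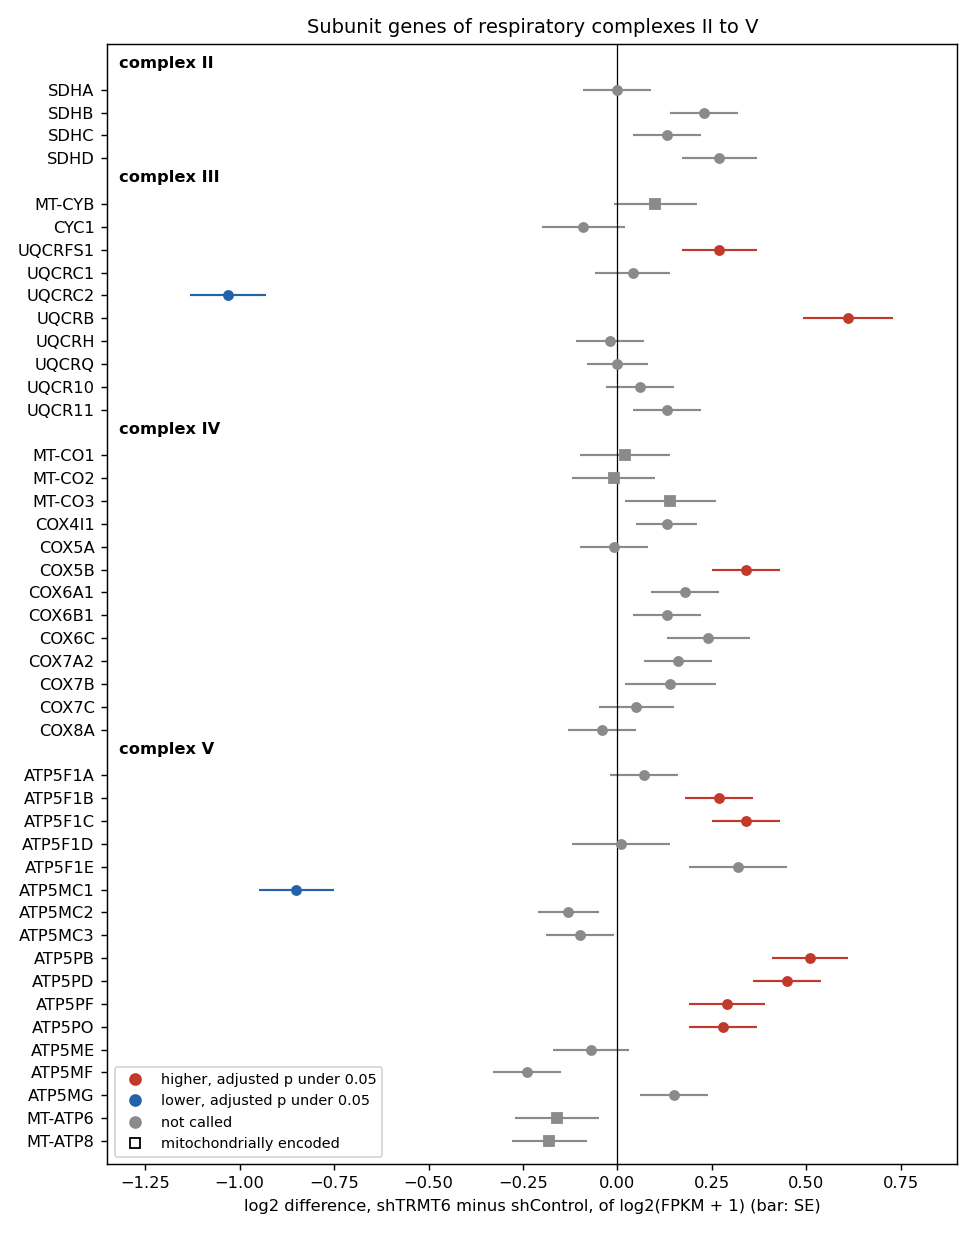
Log2 difference, shTRMT6 minus shControl, of log2(FPKM + 1) for each of the 44 subunit genes, grouped by complex; bars are the standard error from limma, circles are nuclear genes and squares are mitochondrially encoded genes. UQCRC2 at -1.03 and ATP5MC1 at -0.85 lie far to the left, and the 9 genes called higher lie between 0.27 and 0.61.

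All 11 genes called in the main fit are nuclear. Among the 38 nuclear members 9 rose and 2 fell, with a median log2 difference of 0.13. These were 28.9% of the 38, against 35.4% of all genes tested. None of the 6 mitochondrially encoded members was called (median 0.01). The replicate numbers pair the libraries by the check given with the processing. With the replicate number as a block, 14 members were higher and 3 lower, against 25.5% and 21.3% of all genes. The genes added by the block were SDHB, SDHD, COX6A1, COX6C and ATP5F1E on the higher side and ATP5MF on the lower side. With each library's trend on GC content removed, 9 members were higher and 4 lower, against 20.4% and 17.4% of all genes. Of the nuclear members 28.9% were then called, and of the mitochondrially encoded ones 33.3% (2, both lower), against 37.7% of all genes. With both the block and the GC correction 15 were higher and 7 lower, against 25.0% and 21.8% of all genes.

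Summed over the 38 nuclear members, the level was 7053, 7049.5 and 6897 FPKM in shTRMT6 and 6648, 6643 and 6228 FPKM in shControl. Every shTRMT6 library was above every shControl library, with a ratio of the means of 1.08. The sum over all genes was also higher in every shTRMT6 library, with means of 624862 FPKM in shTRMT6 and 607067 FPKM in shControl (ratio 1.03). As a share of all FPKM the nuclear members took up 1.12 ± 0.00837% in shTRMT6 and 1.07 ± 0.0337% in shControl (SD, n = 3 each), a ratio of 1.05. The sum over nuclear genes was 1.11 times as high in shTRMT6 for complex II, 1.01 times for complex III and 1.09 times for both complex IV and complex V. These sums are descriptions with no test.

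Promoters are shown for UQCRC2 and ATP5MC1, the genes that fell, and for 6 of the genes that rose. These 6 are the 4 of the peripheral stalk of complex V, ATP5F1C of its central stalk and COX5B, the complex IV member that was called. The sequences are from RefSeq on GRCh38.p14, 150 bases before to 30 after the annotated start, on the gene's own strand. Capitals mark letters of 4 motifs read on both strands: GCGCANGCG for NRF1, CCGGAAG for ETS factors such as GABPA, AAGATGG for YY1 and CCAAT for NF-Y. NRF1, GABPA and YY1 are textbook regulators of nuclear genes of the respiratory chain.
UQCRC2 at chr16:21953211-21953390 on the plus strand: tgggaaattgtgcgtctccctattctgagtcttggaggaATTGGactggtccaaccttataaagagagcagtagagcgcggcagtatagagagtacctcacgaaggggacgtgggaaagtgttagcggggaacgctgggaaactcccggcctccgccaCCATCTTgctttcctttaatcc
ATP5MC1 at chr17:48892637-48892816 on the plus strand: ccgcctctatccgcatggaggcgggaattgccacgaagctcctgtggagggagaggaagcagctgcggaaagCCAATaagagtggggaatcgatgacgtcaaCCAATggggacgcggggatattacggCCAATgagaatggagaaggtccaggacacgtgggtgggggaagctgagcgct
ATP5PB at chr1:111449314-111449493 on the plus strand: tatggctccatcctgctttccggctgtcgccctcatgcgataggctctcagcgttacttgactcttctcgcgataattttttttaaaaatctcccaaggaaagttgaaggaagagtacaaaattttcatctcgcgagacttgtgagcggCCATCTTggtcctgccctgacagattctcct
ATP5PD at chr17:75046940-75047119 on the minus strand: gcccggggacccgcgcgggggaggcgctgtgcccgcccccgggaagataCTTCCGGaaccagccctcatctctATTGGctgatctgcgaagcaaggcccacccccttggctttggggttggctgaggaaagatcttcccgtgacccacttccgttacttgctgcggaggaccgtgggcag
ATP5PF at chr21:25735025-25735204 on the minus strand: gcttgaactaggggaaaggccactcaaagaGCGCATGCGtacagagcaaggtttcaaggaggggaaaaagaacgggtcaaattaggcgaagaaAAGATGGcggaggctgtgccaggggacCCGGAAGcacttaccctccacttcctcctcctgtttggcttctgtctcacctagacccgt
ATP5PO at chr21:33915775-33915954 on the minus strand: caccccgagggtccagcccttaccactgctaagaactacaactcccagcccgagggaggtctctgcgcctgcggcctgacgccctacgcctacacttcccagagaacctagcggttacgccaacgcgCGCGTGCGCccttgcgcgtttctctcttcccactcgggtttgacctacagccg
ATP5F1C at chr10:7788027-7788206 on the plus strand: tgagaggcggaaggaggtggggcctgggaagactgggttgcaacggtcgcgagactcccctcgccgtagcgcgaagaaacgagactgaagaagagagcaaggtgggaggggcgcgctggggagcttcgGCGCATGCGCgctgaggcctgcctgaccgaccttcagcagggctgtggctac
COX5B at chr2:97645912-97646091 on the plus strand: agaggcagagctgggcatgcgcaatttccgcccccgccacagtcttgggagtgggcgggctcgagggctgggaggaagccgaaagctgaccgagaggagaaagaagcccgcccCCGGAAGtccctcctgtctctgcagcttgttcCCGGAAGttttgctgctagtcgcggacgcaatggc
The ATP5MC1 window holds CCAAT in 3 places and none of the other 3 motifs. The UQCRC2 window holds the reverse complements of AAGATGG and CCAAT. Of the 6 windows of genes that rose, those of ATP5PF, ATP5PO and ATP5F1C hold the NRF1 letters, those of ATP5PD, ATP5PF and COX5B the ETS letters, those of ATP5PB and ATP5PF the YY1 letters, and that of ATP5PD the CCAAT letters. In ATP5F1C the NRF1 letters match on both strands at overlapping bases.

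RefSeq promoters of 300 bases, 250 before to 50 after the start, matched 30 of the 38 nuclear members, and a gene with several listed promoters, such as ATP5PF with 2, was counted if any of them held the letters. The NRF1 letters were in 12 of the 30 (40%), against 9.02% of all 27305 genes with a RefSeq promoter. Those 27305 were not limited to genes detected here, while all of the 30 were detected, so these shares compare unlike sets. The ETS letters were in 15 (50%, against 12.2% of all), the YY1 letters in 9 (30%, against 7.11%) and CCAAT in 12 (40%, against 39.7%). Of the 7 matched genes that rose, 4 held the NRF1 letters, 3 the ETS letters, 3 the YY1 letters and 2 CCAAT. Of the 21 matched genes that were not called, 8 held the NRF1 letters, 12 the ETS letters, 5 the YY1 letters and 8 CCAAT. A match describes the letters in the window and not a bound site. UQCRB and ATP5F1B were among the 8 members with no match.

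Complex II, succinate dehydrogenase, had no subunit called. SDHA, the flavoprotein that oxidises succinate, averaged 66.7 ± 0.734 FPKM in shTRMT6 and 66.9 ± 2.37 FPKM in shControl (SD, n = 3 each; log2 difference -0.00, adjusted p = 0.98), with overlapping groups. SDHB, the iron-sulfur subunit that takes electrons from SDHA, read 98.8, 111 and 97.75 FPKM in shTRMT6 and 89.4, 86.0 and 86.3 FPKM in shControl. Its groups did not overlap, and the log2 difference of 0.23 (SE 0.09, adjusted p = 0.0665) missed the threshold, passing it with the replicate block (adjusted p = 0.0191) and without shControl replicate 1 (0.0488). SDHC and SDHD anchor the enzyme in the membrane and hold its haem. SDHD had a log2 difference of 0.27 (SE 0.10, adjusted p = 0.0604; 0.0149 with the block and 0.0395 without shTRMT6 replicate 3) and no overlap between groups. SDHC had 0.13 (adjusted p = 0.309), with overlap. The 4 genes kept the same order of FPKM in both groups, SDHC highest, then SDHB, SDHA and SDHD.

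In complex III, the cytochrome bc1 complex, the paired core subunits parted. UQCRC2, which with UQCRC1 forms the large matrix part of the complex, read 38.6, 36.5 and 32.3 FPKM in shTRMT6 and 73.5, 74.9 and 74.1 FPKM in shControl. The shControl libraries lay close together, and every shTRMT6 library was far below the lowest of them. Mean FPKM was 35.8 ± 3.21 in shTRMT6 and 74.2 ± 0.705 in shControl (SD, n = 3 each), 2.07-fold lower in shTRMT6 (log2 difference -1.03, SE 0.10, adjusted p = 1.78e-05). UQCRC1 read 224, 223 and 222 FPKM in shTRMT6 and 247, 211 and 194 FPKM in shControl. Its groups overlapped and it was not called (log2 difference 0.04, adjusted p = 0.77); with both the block and the GC correction it was called higher (0.20, adjusted p = 0.00642). The ratio of UQCRC2 to UQCRC1 was 0.161 ± 0.0138 in shTRMT6 and 0.345 ± 0.0431 in shControl (SD, n = 3 each). In the order of the 9 nuclear complex III genes by mean FPKM, UQCRC2 stood last in shTRMT6 and at place 7 in shControl. UQCRC2 (ENSG00000140740) lies on chromosome 16, bases 21952660 to 21983660 on the plus strand in GENCODE release 29. None of its 75-base windows was shared with another annotated gene. The fall was called in all 16 alternatives, with log2 differences from -1.16 to -0.96.

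UQCRB, a small subunit that contributes to the ubiquinone binding site, moved the other way. It read 132, 131 and 113 FPKM in shTRMT6 and 67.8, 95.2 and 84.4 FPKM in shControl. The lowest shTRMT6 library was above the highest shControl library, and shControl replicate 1 was the lowest of the 6. The mean was 1.52 times as high in shTRMT6 (log2 difference 0.61, SE 0.12, adjusted p = 0.00217). It stayed called in all 16 alternatives, and the difference was 0.48 (adjusted p = 0.00535) without shControl replicate 1 and 0.37 with the GC correction. UQCRB has the second lowest GC content of the nuclear members, 38.9%.

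UQCRFS1, the Rieske iron-sulfur protein that hands electrons to cytochrome c1, read 56.8, 54.3 and 49.6 FPKM in shTRMT6 and 46.6, 43.6 and 42.6 FPKM in shControl. The groups did not overlap, and the log2 difference was 0.27 (SE 0.10, adjusted p = 0.0432). The call was lost in 7 of 16 alternatives, among them the GC correction (log2 difference 0.14, adjusted p = 0.232). It was also lost without shTRMT6 replicate 1 (adjusted p = 0.187), shTRMT6 replicate 2 (0.131), shControl replicate 2 (0.114) or shControl replicate 3 (0.132). UQCRFS1 shares 10% of its 75-base windows with the pseudogene UQCRFS1P1. The other catalytic subunits are CYC1, the cytochrome c1 that reduces cytochrome c, and the mitochondrially encoded cytochrome b, MT-CYB. CYC1 averaged 177 ± 13 FPKM in shTRMT6 and 189.5 ± 29.9 FPKM in shControl (log2 difference -0.09, adjusted p = 0.561), and its direction turned with the GC correction.

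The remaining small subunits of complex III, UQCRH, UQCRQ, UQCR10 and UQCR11, were not called, with log2 differences from -0.02 to 0.13. UQCRH, the acidic hinge protein beside cytochrome c1, averaged 213 ± 8.76 FPKM in shTRMT6 and 216 ± 4.69 FPKM in shControl. UQCRQ averaged 139 ± 3.22 FPKM in shTRMT6 and 139.5 ± 2.28 FPKM in shControl. UQCR10 was higher in all 3 shTRMT6 libraries, by a log2 difference of 0.06 that did not pass (adjusted p = 0.639). UQCR11 had overlapping groups and a log2 difference of 0.13 (adjusted p = 0.285). With the GC correction it was called higher at a log2 difference of 0.28. UQCR11 shares 12.9% of its windows with another annotated gene. On the same strand ENSG00000267059 overlaps 10.9% of its exonic bases, at 14.6 FPKM in shTRMT6 and 22.3 FPKM in shControl. The part of these shared bases in the UQCR11 difference was not tested. UQCRH shares 19.6% of its windows with its retrocopy UQCRHL, so the fragments of this gene are less certain.

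**Figure D2:**
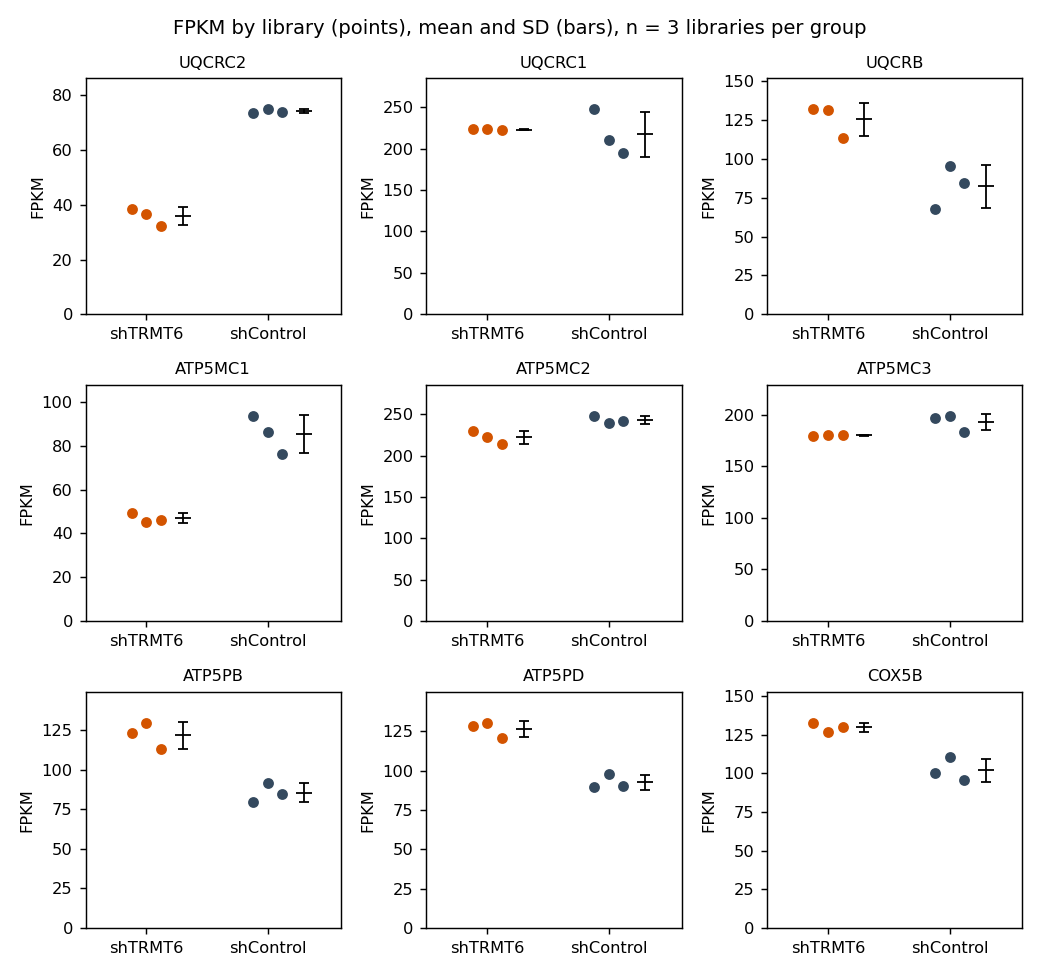
FPKM of 9 subunit genes in each library, shTRMT6 left of shControl, with mean and SD (n = 3 libraries per group). UQCRC2 and ATP5MC1 are lower in shTRMT6 with a wide gap, UQCRC1 overlaps, ATP5MC2 and ATP5MC3 lie slightly lower without overlap, and UQCRB, ATP5PB, ATP5PD and COX5B are higher.

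Complex IV, cytochrome c oxidase, showed a single call among its 10 nuclear subunits. COX5B, a matrix-side subunit that binds zinc, read 133, 127 and 129.6 FPKM in shTRMT6 and 99.85, 110.2 and 95.9 FPKM in shControl. The groups did not overlap, and the mean was 1.27 times as high in shTRMT6 (log2 difference 0.34, SE 0.09, adjusted p = 0.0106). The call was lost only without shTRMT6 replicate 1 (adjusted p = 0.0573), and the difference was 0.40 with the GC correction. COX5B (ENSG00000135940) lies on chromosome 2, bases 97646040 to 97648383 on the plus strand. COX5A, its neighbour on the matrix side, averaged 212 ± 9.65 FPKM in shTRMT6 and 213 ± 11.7 FPKM in shControl (log2 difference -0.01, adjusted p = 0.95).

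The other 8 listed nuclear subunits had log2 differences from -0.04 to 0.24. COX4I1, the subunit through which ATP and ADP tune the enzyme, averaged 446 ± 3.49 FPKM in shTRMT6 and 409 ± 16.1 FPKM in shControl, without overlap (log2 difference 0.13, adjusted p = 0.261). COX6A1, the most abundant of the nuclear complex IV mRNAs on the FPKM scale, averaged 773.5 ± 47.8 FPKM in shTRMT6 and 682 ± 30.9 FPKM in shControl (log2 difference 0.18, adjusted p = 0.131; 0.0459 with the replicate block). COX6C had the largest of these differences, 0.24 (adjusted p = 0.0931; 0.011 with the block), and its lowest library was shControl replicate 1 at 140.1 FPKM against 178 and 177 FPKM in the other shControl libraries. Without that library the COX6C difference was 0.13. COX7A2 was higher in all 3 shTRMT6 libraries (0.16, adjusted p = 0.155). COX6B1 (0.13), COX7B (0.14), COX7C (0.05) and COX8A (-0.04) had overlapping groups; with both the block and the GC correction COX7C was called lower (-0.15, adjusted p = 0.03). With the GC correction COX4I1, COX6A1 and COX6B1 were called higher, so complex IV then had 4 genes called instead of 1. COX6A1 shares 37.1% of its windows with other loci.

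Complex V, the ATP synthase, held 7 of the 11 calls; these were 41.2% of its 17 genes, against 35.4% of all genes tested. The complex is a motor: the mitochondrially encoded a subunit and a ring of c subunits form the proton path, a central stalk turns inside the catalytic head, and a peripheral stalk holds the head still. All 4 peripheral stalk genes rose, while the c subunit gene ATP5MC1 fell. The 17 genes had a median log2 difference of 0.07.

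The c subunit is made from ATP5MC1, ATP5MC2 and ATP5MC3, whose precursors differ in the targeting sequence and give the same mature protein. ATP5MC1 read 49.35, 45 and 46.2 FPKM in shTRMT6 and 93.5, 86.3 and 76.1 FPKM in shControl. Every shTRMT6 library was far below every shControl library, 1.82-fold in the means (log2 difference -0.85, SE 0.10, adjusted p = 9.13e-05). ATP5MC2 averaged 222 ± 7.7 FPKM in shTRMT6 and 243 ± 4.54 FPKM in shControl (log2 difference -0.13, adjusted p = 0.248), and ATP5MC3 averaged 179.8 ± 0.767 FPKM in shTRMT6 and 193 ± 8.09 FPKM in shControl (-0.10, adjusted p = 0.385). Neither passed the test, though each was lower in all 3 shTRMT6 libraries; with the GC correction the ATP5MC2 difference was 0.01, and with the block as well ATP5MC3 was called lower (-0.16, adjusted p = 0.0318). The 3 genes together summed to 449 ± 8.61 FPKM in shTRMT6 and 521 ± 18.1 FPKM in shControl, a ratio of 0.86. ATP5MC1 made up 10.4 ± 0.358% of that sum in shTRMT6 and 16.3 ± 1.12% in shControl. ATP5MC1 (ENSG00000159199) lies on chromosome 17, bases 48892765 to 48895871 on the plus strand in GENCODE release 29, shares no 75-base window with another gene, and was called in all 16 alternatives (log2 differences from -0.93 to -0.75).

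The peripheral stalk consists of ATP5PB (subunit b), ATP5PD (subunit d), ATP5PF (coupling factor 6) and ATP5PO (the oligomycin sensitivity conferral protein). ATP5PB read 123, 129.6 and 113 FPKM in shTRMT6 and 79.8, 91.7 and 84.7 FPKM in shControl, 1.43 times as high in the means (log2 difference 0.51, SE 0.10, adjusted p = 0.0016). ATP5PD read 128, 130.4 and 121 FPKM in shTRMT6 and 89.7, 97.9 and 90.0 FPKM in shControl (0.45, SE 0.09, adjusted p = 0.00219). In both genes the groups stood well apart, and both calls held in all 16 alternatives. In GENCODE release 29 ATP5PB (ENSG00000116459) lies on chromosome 1, bases 111448864 to 111462773 on the plus strand, and ATP5PD (ENSG00000167863) on chromosome 17, bases 75038863 to 75046985 on the minus strand. ATP5PF read 128, 122.5 and 110.35 FPKM in shTRMT6 and 102, 105 and 88.5 FPKM in shControl (0.29, SE 0.10, adjusted p = 0.04). ATP5PO read 142, 148 and 137 FPKM in shTRMT6 and 111, 127 and 113 FPKM in shControl (0.28, SE 0.09, adjusted p = 0.0306). Their groups did not overlap but lay closer together, and with the GC correction neither was called (adjusted p = 0.214 for ATP5PF and 0.0525 for ATP5PO). ATP5PF was called in 10 of 16 alternatives and ATP5PO in 12. Without shTRMT6 replicate 1, shTRMT6 replicate 2 or shControl replicate 3 the adjusted p was 0.17, 0.122 or 0.166 for ATP5PF and 0.101, 0.126 or 0.0935 for ATP5PO.

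Summed over the peripheral stalk, the level was 511 ± 25.9 FPKM in shTRMT6 and 394 ± 24.4 FPKM in shControl. Set against the summed c subunit genes it was 1.14 ± 0.0472 in shTRMT6 and 0.756 ± 0.0466 in shControl (SD, n = 3 each), and no library of one group reached the range of the other. Each stalk gene was higher and each c subunit gene lower without overlap between groups. The separation of this ratio follows from those values and adds nothing to them. ATP5PB, ATP5PD and ATP5PF overlap exons of WDR77, KCTD2 and GABPA on the opposite strand over 10.3%, 10.5% and 20.2% of their exonic bases, and the strand setting of the counting was not given in the sources used here. GABPA, which was called higher, averaged 3.75 FPKM in shTRMT6 and 2.46 FPKM in shControl. ATP5PO shares 68.1% of its windows with an overlapping annotated gene, ENSG00000249209, at 0.58 FPKM in shTRMT6 and 0.61 FPKM in shControl, so the division of its fragments is less certain.

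In the catalytic head, ATP5F1B, the beta subunit that forms the ATP at its active sites, rose, and ATP5F1A, the alpha subunit, was not called. ATP5F1B read 838, 881 and 784 FPKM in shTRMT6 and 745, 686 and 640.35 FPKM in shControl, without overlap (log2 difference 0.27, SE 0.09, adjusted p = 0.036). This call was lost in 7 of 16 alternatives, among them those without shTRMT6 replicate 1 (adjusted p = 0.12), shTRMT6 replicate 2 (0.158), shControl replicate 2 (0.0989) or shControl replicate 3 (0.127). ATP5F1A averaged 286 ± 12.2 FPKM in shTRMT6 and 273 ± 6.55 FPKM in shControl (0.07, adjusted p = 0.564).

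Of the central stalk, ATP5F1C, the gamma subunit that turns within the head, read 257, 264 and 242 FPKM in shTRMT6 and 189, 221 and 195 FPKM in shControl. The groups did not overlap (log2 difference 0.34, SE 0.09, adjusted p = 0.0134), and the call was lost in 3 of 16 alternatives, which were the GC correction (0.16, adjusted p = 0.0817) and those without shTRMT6 replicate 1 (adjusted p = 0.0597) or shTRMT6 replicate 2 (0.065). ATP5F1E, the epsilon subunit at the foot of the stalk, had a log2 difference of 0.32 (adjusted p = 0.0736) with overlapping groups; its lowest library was shControl replicate 1 at 18.7 FPKM, and the difference was 0.17 without it. ATP5F1E passed the threshold with the block (adjusted p = 0.013) and without shControl replicate 2 (0.022). ATP5F1D, the delta subunit, averaged 129.7 ± 12.5 FPKM in shTRMT6 and 129.9 ± 23.4 FPKM in shControl (0.01, adjusted p = 0.965; with both the block and the GC correction 0.18, adjusted p = 0.0226).

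The small membrane subunits e, f and g, encoded by ATP5ME, ATP5MF and ATP5MG, help the enzyme form dimers. ATP5MF read 201, 179 and 193 FPKM in shTRMT6 and 237, 223 and 217 FPKM in shControl. The groups did not overlap, and the log2 difference of -0.24 (SE 0.09, adjusted p = 0.0503) lay just outside the threshold, passing it with the replicate block (adjusted p = 0.00879). ATP5MF shares 29.4% of its windows with 2 other annotated genes, among them the read-through gene ATP5MF-PTCD1. That read-through gene averaged 20.9 FPKM in shTRMT6 and 16.3 FPKM in shControl. The part of these shared bases in the ATP5MF difference was not tested. ATP5MG had a log2 difference of 0.15 (adjusted p = 0.214) without overlap, and ATP5ME -0.07 (adjusted p = 0.629) with overlap. On the opposite strand MYL5 covers 61.6% of the exonic bases of ATP5ME, at 1.47 FPKM in shTRMT6 and 1.21 FPKM in shControl.

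None of the 6 mitochondrially encoded subunit mRNAs was called. They were the most abundant members on the FPKM scale and took up 10.8%, 11.2% and 12.4% of all FPKM in shTRMT6 and 10.3%, 12.3% and 13.1% in shControl. The ranges of the groups overlapped, with means of 11.4 ± 0.83% in shTRMT6 and 11.9 ± 1.43% in shControl (SD, n = 3 each). The summed level was 0.99 times as high in shTRMT6, and 0.93 times without shControl replicate 1, the library with the lowest sum.

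MT-CO1, which holds the haem-copper centre where oxygen is reduced, read 15649.7, 16319 and 17790.4 FPKM in shTRMT6 and 13773, 17639 and 17877 FPKM in shControl (log2 difference 0.02, adjusted p = 0.905). MT-CO2, which takes electrons from cytochrome c, read 12844, 13689.8 and 14751 FPKM in shTRMT6 and 12320.0, 14065 and 15183 FPKM in shControl (-0.01, adjusted p = 0.968). In both, shControl replicate 1 was lowest and the groups overlapped. MT-CO3, the third core subunit, read 15874, 16877 and 18056 FPKM in shTRMT6 and 12945, 16194 and 17385 FPKM in shControl (0.14, adjusted p = 0.396). MT-CYB read 4424, 4849.5 and 5244 FPKM in shTRMT6 and 3975, 4730.3 and 4837 FPKM in shControl (0.10, adjusted p = 0.482). These groups overlapped as well, and quantile normalization turned the MT-CYB difference to -0.13. MT-CO1 shares 36.6% of its windows with the nuclear pseudogene MTCO1P12.

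MT-ATP6, the a subunit of the proton path, read 16011, 15598 and 17658 FPKM in shTRMT6 and 16670.1, 18504 and 19985 FPKM in shControl (log2 difference -0.16, adjusted p = 0.25). MT-ATP8, a small subunit carried on the same mRNA in an overlapping reading frame, read 2774, 2897 and 3314 FPKM in shTRMT6 and 3171, 3403 and 3563 FPKM in shControl (-0.18, adjusted p = 0.182). The groups overlapped in both genes. With the GC correction both were called lower, at -0.31 (adjusted p = 0.0252) for MT-ATP6 and -0.41 (adjusted p = 0.00973) for MT-ATP8. The ratio of MT-ATP8 to MT-ATP6 was 0.182 ± 0.00784 in shTRMT6 and 0.184 ± 0.00597 in shControl (SD, n = 3 each). Of the exonic bases of MT-ATP8, 22.2% also lie in MT-ATP6, and the part of that overlap or of gene length in the ratio was not tested. MT-ATP6 shares 28.0% of its windows with the nuclear pseudogene MTATP6P1.

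**Figure D3:**
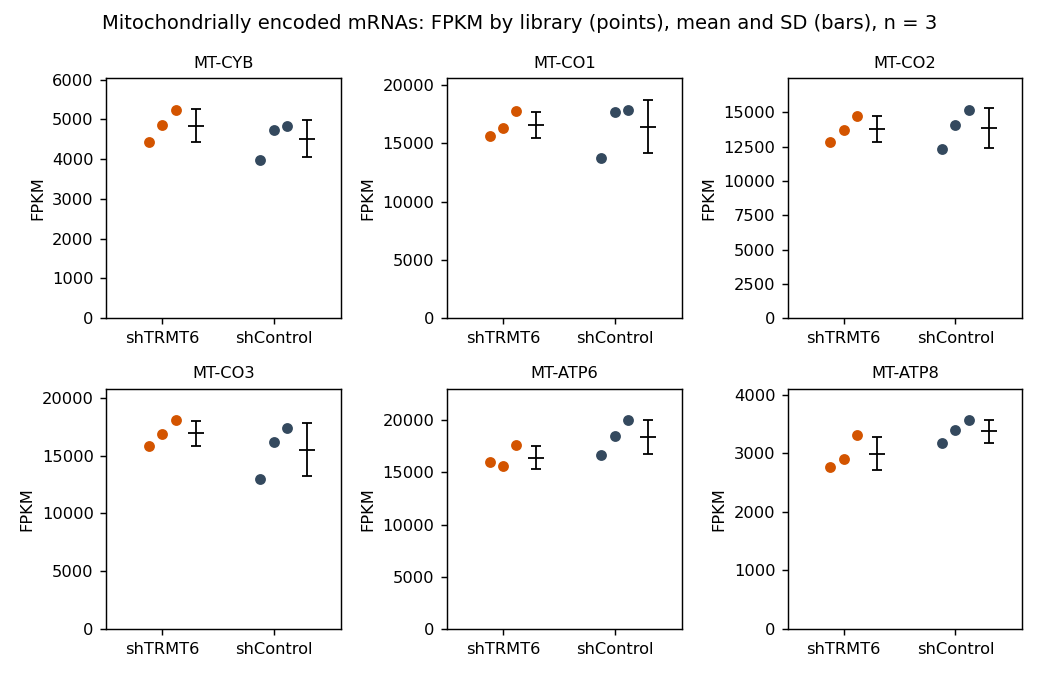
FPKM of the 6 mitochondrially encoded subunit mRNAs of complexes III, IV and V in each library, shTRMT6 left of shControl, with mean and SD (n = 3 libraries per group). The groups overlap in all 6, and shControl replicate 1, the first point of its group, is the lowest shControl library in each.

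The 7 MT-ND mRNAs, which encode the complex I subunits of the mitochondrial genome, had a median log2 difference of -0.19. In the main fit MT-ND3 alone was called, lower in shTRMT6 (-0.44, SE 0.12, adjusted p = 0.0134, or 0.0522 without shTRMT6 replicate 1). With the GC correction 6 of the 7 were called lower, and with both the block and the GC correction all 7 were. Of all 13 mitochondrially encoded mRNAs, 1 was called lower (7.69%, against 16.1% of all genes). With the replicate block 3 were lower (23.1%, against 21.3%), and with the GC correction 8 (61.5%, against 17.4%). With both, 9 were lower (69.2%, against 21.8%).

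The differences of the members moved with the GC content of their transcripts, as those of all genes did. Across the 10592 tested genes, of which 10573 had a GC value, Pearson's r between GC content and log2 difference was -0.39. Where the genes were cut into 10 bins of equal size by GC content, the median log2 difference was 0.27 in the bin of lowest GC and -0.13 in the bin of highest GC. Across the 38 nuclear members r was -0.33, and it was -0.60 across the 36 other than UQCRC2 and ATP5MC1. Genes of a library share its depth and base composition, so these are descriptions. After the GC correction r was 0.08 across the 38. UQCRC2 has a GC content of 45.2% and ATP5MC1 of 53.9%, and their corrected log2 differences were -1.16 and -0.75. COX5B, at 52.0%, was the called gene with the highest GC content among those that rose. UQCRB, ATP5PB and ATP5PD were called with the correction at 0.37, 0.36 and 0.32, below their uncorrected differences.

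**Figure D4:**
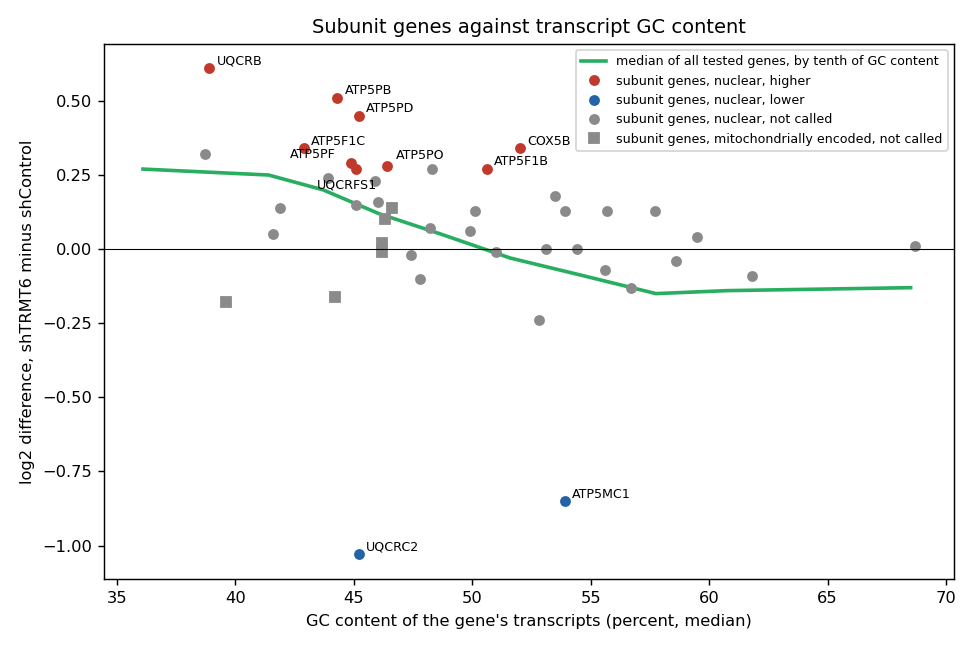
Log2 difference, shTRMT6 minus shControl, of the 44 subunit genes against the median GC content of their annotated transcripts in percent; the green line joins the medians of all tested genes in 10 bins of GC content. The line starts at 0.27 and ends at -0.13, and UQCRC2 and ATP5MC1 lie far below it.

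Genes that build the complexes were read beside their subunits. The shares called were 25% of the tested complex II factors, 33.3% of those of complexes III, IV and V each, and 28.6% of the electron carrier genes below, all under the 35.4% of all genes. Of 4 tested complex II assembly factors 1 was higher and none lower; SDHAF3, which protects SDHB during its maturation, read 20.6, 21.65 and 16.5 FPKM in shTRMT6 and 10.1, 13.3 and 12.8 FPKM in shControl (log2 difference 0.65, SE 0.13, adjusted p = 0.00228). Of 9 complex III factors 1 was higher and 2 were lower. UQCC2, which acts in the early maturation of cytochrome b, read 13.8, 11.9 and 14.7 FPKM in shTRMT6 and 20.0, 21.9 and 20.3 FPKM in shControl (-0.59, SE 0.11, adjusted p = 0.00137). UQCC5 was lower too (-0.34, adjusted p = 0.0233; adjusted p = 0.0577 with the GC correction) and UQCC4 higher (0.28, adjusted p = 0.0439). In each of these 3 genes the groups did not overlap, but the calls of UQCC5 and UQCC4 were lost without shTRMT6 replicate 1 (adjusted p = 0.0916 and 0.103), shTRMT6 replicate 2 (0.11 and 0.164) or shControl replicate 2 (0.0632 and 0.0875). That of UQCC4 was also lost without shTRMT6 replicate 3 (0.0592) or shControl replicate 3 (0.165).

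Of 24 tested complex IV factors 6 were higher and 2 lower, with a median of 0.20. SCO2 and SCO1, which carry copper to MT-CO2, were 1.64 and 1.53 times as high in shTRMT6 (log2 differences 0.70 and 0.59, adjusted p = 0.00111 and 0.00113). COX11, which carries copper to MT-CO1, was 1.48 times as high (0.53, adjusted p = 0.00408). Of 6 complex V factors 2 were higher and none lower: FMC1 (0.43, adjusted p = 0.0115) and ATPAF2, a chaperone of the alpha subunit (0.38, adjusted p = 0.0139). Both calls were lost without shTRMT6 replicate 1 (adjusted p = 0.0521 for FMC1 and 0.0741 for ATPAF2), shTRMT6 replicate 2 (0.055 and 0.0504) or shControl replicate 3 (0.0548 and 0.0616). Of 11 genes for other subunits and isoforms 5 reached the level for testing, and COX7A2L (0.32, adjusted p = 0.0362) and NDUFA4 (0.30, adjusted p = 0.0477) were called higher. These 2 were 40% of the 5, against 35.4% of all genes, and neither was called with the GC correction. The COX7A2L call was lost without shTRMT6 replicate 1, shTRMT6 replicate 2, shControl replicate 2 or shControl replicate 3 (adjusted p = 0.0633 to 0.156). The NDUFA4 call was lost in every case with 1 library left out except shControl replicate 2 (0.0527 to 0.131). The tissue-specific isoforms COX4I2, COX6A2, COX7A1 and COX8C were listed at 0 in all libraries.

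Cytochrome c, which carries electrons between complexes III and IV, was higher by more than any of the 44 members. CYCS read 99.6, 104 and 86.7 FPKM in shTRMT6 and 41.2, 51.2 and 45.8 FPKM in shControl, 2.10 times as high in the means (log2 difference 1.06, SE 0.11, adjusted p = 3.26e-05). It belongs to a list of 14 electron carrier genes, of cytochrome c and ubiquinone synthesis, of which 3 were higher and 1 lower. The others that rose were COQ10B (0.70, adjusted p = 0.000517) and COQ8A (0.57, adjusted p = 0.00178), and COQ4, chosen after its value was seen, was lower (-0.30, adjusted p = 0.05 after rounding, just inside the threshold). The COQ4 call was lost in 11 of 16 alternatives, with the GC correction at -0.15 (adjusted p = 0.14) and with any 1 library left out (adjusted p = 0.0505 to 0.211).

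Of 27 tested genes of mitochondrial RNA expression 10 were higher and 1 lower, with a median log2 difference of 0.28, or 8 higher and 2 lower with a median of 0.16 after the GC correction. The share called was 40.7%, or 37% after the correction, close to the 35.4% and 37.7% of all genes. TFB2M, a transcription factor of the mitochondrial RNA polymerase, was 1.79 times as high in shTRMT6 (0.80, SE 0.10, adjusted p = 0.000145). TRMT10C, a subunit of mitochondrial RNase P, was 1.78 times as high (0.80, SE 0.12, adjusted p = 0.000344), and FASTKD1 1.67 times (0.68, SE 0.13, adjusted p = 0.002). FASTKD1 belongs to a family of proteins that act on mitochondrial RNA. Of the 6 mitochondrially encoded subunit mRNAs none was called higher in any of the 16 alternatives. With either GC correction 2 of them, MT-ATP6 and MT-ATP8, were called lower. Any relation of this list to those mRNAs was not tested. FASTK, chosen after its value was seen, was the gene of this list that was lower (-0.46, adjusted p = 0.0134). Of 7 tested nuclear regulators NRF1 was lower (-0.34, SE 0.11, adjusted p = 0.0227), and GABPA (0.46, SE 0.15, adjusted p = 0.025) and YY1 (0.35, SE 0.10, adjusted p = 0.0178) were higher. Among the regulators 42.9% were thus called, or 28.6% after the GC correction, against 35.4% and 37.7% of all genes. The GABPA call was lost with the GC correction (adjusted p = 0.189) and without shTRMT6 replicate 1 (0.081), shTRMT6 replicate 2 (0.088), shControl replicate 1 (0.0722) or shControl replicate 3 (0.0751). GABPA shares 413 exonic bases with ATP5PF on the opposite strand, which averaged 120 FPKM in shTRMT6 and 98.5 FPKM in shControl. The part of ATP5PF fragments in the GABPA values was not tested. The NRF1 call was lost without shTRMT6 replicate 1 (adjusted p = 0.0738), shTRMT6 replicate 2 (0.0921), shControl replicate 2 (0.0582) or shControl replicate 3 (0.0654), and that of YY1 without shTRMT6 replicate 2 (0.0908) or shControl replicate 3 (0.053). PPARGC1A, a coactivator of respiratory genes, was at 0 in 5 of the 6 libraries.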

How the data were processed

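Per the labels' protocols, RKO RNA was isolated using TRIzol, and libraries of enriched mRNA were prepared using a NEBNext Ultra kit. Tools named, per the submitters' processing notes, are HISAT2, RSEM, Bowtie2 2.2.8, StringTie 1.3.1 and fastp 0.18.0, with no roles. The sources used here give no build, annotation or strand setting. For each gene and library the deposited table holds 1 FPKM value, per the file headers. It has 20289 genes, of which 5274 were at 0 in all 6 libraries. Its column names abbreviate the groups of the sample titles and were matched by group and replicate number.

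As FPKM are no counts, count models were left out. Genes whose mean reached 1 FPKM were tested on log2(FPKM + 1) with limma 3.58.1 (R 4.3.3), as a two-sided test with a trended variance prior, adjusted by Benjamini-Hochberg over all 10592 genes; the script was tested on simulated data. Low genes change more than their differences on this scale show. Depth was estimated roughly from the step that 1 fragment makes in low FPKM values, using transcripts of at most 1000 bases. GC content (median over a gene's coding transcripts), coordinates, exon overlaps and shared 75-base windows came from GENCODE release 29, and promoters from RefSeq.

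Deviations from the group means correlated between libraries of the same number at 0.206, 0.364 and 0.17, and between different numbers at -0.288 to 0.094. All same-number values are over 0.1, so the numbers were taken to pair the libraries, although no label explains the numbers. The fit without a block was kept as the main one, so its adjusted p-values leave that pairing out. With the block 14 members were higher and 3 lower. Alternatives were pseudocounts of 0.1 and 0.5, no filter, a mean of at least 5 FPKM, median-of-ratios scaling, quantile normalization, a loess correction on GC content (span 0.5), a robust prior, the replicate block, the block with the GC correction, and each library left out. The genes named are all members, TRMT6, and up to 3 called genes with the largest absolute difference from each other list. The members and lists were chosen with earlier results of these data known.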

Additional observations from a re-analysis of the deposited data

How the results depend on the processing

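Of 704 member differences (44 genes in 16 alternatives), 610 kept direction and side of the threshold, 28 lost a call, 30 gained one and 36 turned direction, all in genes not called as reported. UQCRC2, UQCRB, ATP5MC1, ATP5PB and ATP5PD were called throughout, TRMT6 too (log2 -3.42 to -2.71). FPKM of short genes, 3 libraries a group and the unknown strand setting limit the precision.

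Counts were 9 higher and 2 lower. With the replicate block they were 14 and 3, with block and GC correction 15 and 7 (25.0% and 21.8% of all genes), with the GC correction 9 and 4. Nuclear genes gave 14 higher with the block and, with block and GC correction, 15 higher and 5 lower, and mitochondrially encoded genes 2 lower with either GC correction. Complex II (main 0) had 2 higher with quantile normalization or the block and 1 with block and GC correction. Complex III (main 2) had 1 higher with median-of-ratios scaling. Complex IV (main 1) had 4 higher with either GC correction and 3 with the block, and 1 lower with block and GC correction. Complex V (main 6 higher, 1 lower) had 3 higher with the GC correction; it had 2 lower with median-of-ratios scaling, quantile normalization or the block, 3 with the GC correction and 5 with block and GC correction.

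With 1 library left out, counts ran from 3 to 10 higher and 2 to 2 lower (same for nuclear genes); for complex II from 0 to 1 higher, complex III 1 to 2, complex IV 0 to 1 and complex V 2 to 6. The low counts came without shTRMT6 replicate 1 (3), shTRMT6 replicate 2 (4) and shControl replicate 3 (5), where 12.3%, 12.2% and 15.3% of all genes were higher, against 19.3%. The ratio of summed FPKM ran from 1.053 to 1.088 for nuclear and 0.933 to 1.041 for mitochondrial members, and that of the mitochondrial share from 0.904 to 1.015.

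Differences that turned direction, not called except COX7C with block and GC correction (adjusted p = 0.03), had these values (ranges with 1 library left out): UQCRC1 (0.04) -0.01 with quantile normalization, range -0.03 to 0.14; UQCRH (-0.02) range -0.05 to 0.01; CYC1 (-0.09) 0.07 with either GC correction, range -0.18 to 0.03; MT-CYB (0.10) -0.13 with quantile normalization; COX5A (-0.01) 0.02 with either GC correction, range -0.05 to 0.03. MT-CO1 (0.02) was -0.01 with median-of-ratios scaling, -0.02 with quantile normalization and -0.08 with either GC correction, range -0.10 to 0.09. MT-CO2 (-0.01) had a range of -0.09 to 0.06. ATP5F1D (0.01) was -0.03 with median-of-ratios scaling, range -0.13 to 0.13. With either GC correction COX7B (0.14) was -0.06, COX7C (0.05) -0.15, COX8A (-0.04) 0.11, ATP5MC2 (-0.13) 0.01 and ATP5ME (-0.07) 0.06, the last with a range of -0.11 to 0.01, and COX7C with -0.03 to 0.10.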
